A study of Mus musculus with 4 samples.

Results

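Genes of the extracellular matrix were compared between 2 mouse cell populations on single-colour oligonucleotide arrays. They were chosen by gene symbol, with earlier results of these data known. The symbols covered collagens, laminins, fibulins, fibrillins, nidogens, thrombospondins, and Hspg2, Sparc, Fn1, Vtn, Dcn, Lum, Bgn, Tgfbi, Postn and Lox. This gave 81 of 12422 probe sets, for 57 of the 8251 genes with a symbol of their own on the array. Of these, 21 genes (30 probe sets) belong to the basement membrane and 36 (51 probe sets) to the interstitial matrix and other matrix. A further probe set that lists a thrombospondin together with another gene was left out.

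The arrays are titled Hemangioblast (2 arrays) and hCD4 (2 arrays), and all come from 1 mouse embryonic stem (ES) cell line, Scl+/hCD4, in which human CD4 marks cells that express the blood transcription factor Scl. The submitters describe embryoid bodies differentiated for 2.75 days in fetal calf serum, a sort of Flk-1+Scl+ cells as hemangioblasts, and blast colonies picked and pooled after replating. Titles, sources and study text disagree on which arrays hold ES cells, sorted cells or colonies, so the groups carry their titles here. The stem cells were maintained on inactivated STO fibroblasts and moved to gelatin before differentiation, and no label says whether same-titled arrays are separate cultures. The p-values therefore rest on array-to-array spread that may be technical. Of the lists that check the cell types, macrophage genes were higher on the Hemangioblast arrays in 8 of 12 cases, with summed scaled intensities of 6509 and 7639 there and of 700.2 and 724 for hCD4. Erythroid genes were higher in 5 of 8, with sums of 27810.5 and 28227 for Hemangioblast, against 7859 and 8296 for hCD4. Of 10 endothelial genes, 2 were higher on the Hemangioblast arrays (Vwf and Tie1) and 1 lower (Kdr, which encodes Flk-1). The sums over all 10 were 6314 and 5792 for Hemangioblast, against 6204 and 6868 for hCD4. Kdr had 648 and 570 for Hemangioblast, against 1625 and 2003 for hCD4. Vwf had 453 and 465 for Hemangioblast, against 47.1 and 42.5 for hCD4. The Hemangioblast arrays were lower in 2 of 9 ES cell genes, Pou5f1 and Dppa5a, and higher in 0 (sums 4610.4 and 4820.5 for Hemangioblast, against 7540 and 5915 for hCD4). Pou5f1 had 104 and 144 for Hemangioblast, against 1526 and 585 for hCD4. A second Pou5f1 probe set had 76.0 and 34.1 for Hemangioblast, against 21.9 and 16.9 for hCD4. Dppa5a had 310 and 169 for Hemangioblast, against 1397 and 745 for hCD4. Esrrb, the brightest of the list, had 3343 and 3476 for Hemangioblast, against 3165 and 3579 for hCD4. Over all genes, 3.39% were higher and 1.96% lower. As a description, Pearson's r over all probe sets was 0.961 and 0.963 within the groups and 0.921 to 0.940 between them. RNA integrity, read as Gapdh 3' signal over 5' signal, came to 1.33 and 1.03 for Hemangioblast and to 1.13 and 1.03 for hCD4. The same ratio for actin was 1.63 and 1.16 for Hemangioblast and 1.36 and 1.12 for hCD4. In each group both ratios were higher on replicate 1.

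A basement membrane is a thin sheet of matrix that underlies epithelia and vessels and surrounds early embryonic tissues. Laminins, each an assembly of an alpha, a beta and a gamma chain, polymerise at the cell surface, a network of collagen IV forms beside them, and nidogens and the proteoglycan perlecan link both. The interstitial matrix lies between cells and is built on fibronectin and fibrillar collagens, with smaller proteins that bind cells, fibrils or growth factors. Matrix chains are made in the endoplasmic reticulum, where collagens need dedicated enzymes and chaperones, and cells bind the finished matrix through integrins and other receptors.

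In the matrix genes as a whole, 8 of 57 passed an adjusted p of 0.05 (14.0%), against 5.36% of all genes. On the Hemangioblast arrays, 6 were lower (1.96% of all genes were) and 2 higher (3.39% of all genes were). The genes that fell were Col4a1, Lama5, Lamb1, Fn1, Fbln2 and Col13a1, and those that rose were Col3a1 and Tgfbi. These counts use the brightest probe set of each gene. With the probe sets of a gene averaged instead, only Col4a1, Fn1 and Fbln2 of the 57 passed. In that fit 453 of 9840 genes and probe sets without a single symbol passed. By probe set, 8 of 81 passed, against 4.48% of all probe sets: 6 lower (1.56% of all) and 2 higher (2.91% of all). The groups did not overlap for 24 of the 57 genes, a share close to the 46.5% of all genes; 16 were lower (22.0% of all genes) and 8 higher (24.5% of all genes). By probe set this held for 39 of 81 (44.4% of all), with 26 lower (19.7% of all) and 13 higher (24.8% of all). A rule of size that needs no variance model compared scaled intensities after adding 16. It asked for a 2-fold difference, one way, in each of the 4 Hemangioblast and hCD4 pairings. It held for 6 of 81 probe sets (2.89% of all), 4 of them lower (Col4a1, Lama5, Lamb1 and Fn1; 0.604% of all) and 2 higher (Col3a1 and Tgfbi; 2.29% of all). The median log2 change was -0.08 over the matrix genes and 0.02 over all genes. In RNA from a bulk of cells, fewer cells of a type and less RNA per cell cannot be told apart.

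Levels below are intensities after scaling between arrays, and changes are log2 of the scaled intensity plus 16, Hemangioblast minus hCD4, tested with limma and adjusted by Benjamini-Hochberg over all 12422 probe sets. Levels of different genes are not comparable, because each probe set binds with its own strength. A gene is represented by its probe set with the highest mean of these log2 values. Other probe sets are given for matrix genes that passed or whose probe sets differed in sign.

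**Figure D1:**
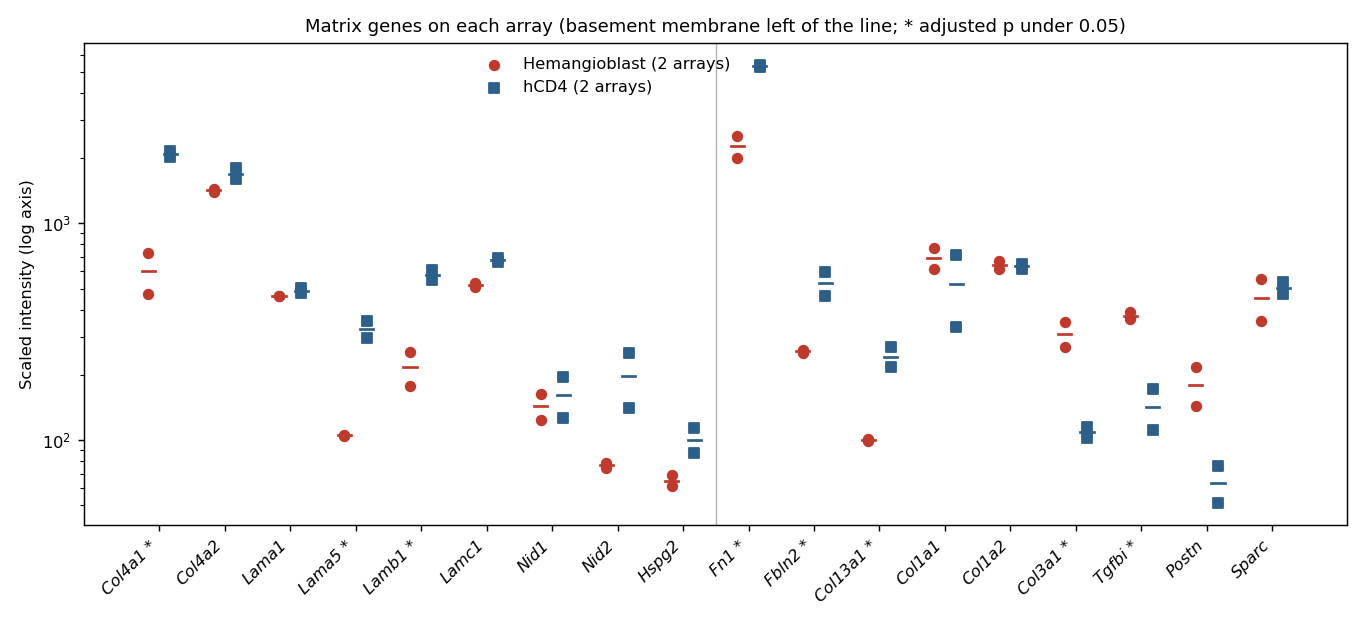
Scaled intensity (log axis) of 18 matrix genes on each array, with Hemangioblast arrays as circles and hCD4 arrays as squares, and a short line at each group's mean. Col4a1 lay at 469.7 and 731 on the Hemangioblast arrays, below 2024 and 2153 on the hCD4 arrays, while Col3a1 and Tgfbi lay above the hCD4 arrays.

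Collagen IV is the network-forming collagen of all basement membranes, and its most widely used molecule joins chains from Col4a1 and Col4a2. Of its 5 measured genes, Col4a1 fell (1.96% of all genes did) and none rose (3.39% of all genes did). Col4a1 had scaled intensities of 731 and 469.7 on the Hemangioblast arrays, against 2024 and 2153 on the hCD4 arrays. Both Hemangioblast arrays were far below both hCD4 arrays, although they also differed from each other. The means were 600.3 ± 185 for Hemangioblast and 2089 ± 90.7 for hCD4 (SD, n = 2 arrays each), and the log2 change was -1.80 (SE 0.211, adjusted p = 0.00238). Col4a2 had 1401 and 1447 on the Hemangioblast arrays, against 1604 and 1796 on the hCD4 arrays. Its groups also did not overlap, but the gap was small beside that of Col4a1, and its log2 change of -0.25 did not pass (95% interval -0.58 to 0.08, adjusted p = 0.472). The within-array log2 difference Col4a1 minus Col4a2 was -0.92 and -1.59 on the Hemangioblast arrays, against 0.33 and 0.26 on the hCD4 arrays. The groups did not overlap in it. An exact permutation test of this difference with 2 arrays a group allows no two-sided p below 0.333, and no other test of it was run. The chains of restricted tissues were dim: Col4a3 reached at most 63.97 on any array, and Col4a4 had 34.1 and 56.7 on the Hemangioblast arrays, against 4.41 and 31.4 on the hCD4 arrays (adjusted p = 0.382). Col4a5 averaged 97.2 ± 20.0 for Hemangioblast and 119 ± 50.5 for hCD4, with overlapping groups.

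Col4a1 and Col4a2 lie head to head on mouse chromosome 8 and are known to share a promoter region, so their promoter windows are shown because 1 gene of the pair changed past the threshold and the other did not. Each window runs from 250 bases before to 50 after the RefSeq start (GRCm38.p6), 5′ to 3′ on the gene's own strand, with capitals marking the GC box GGGCGG, the CCAAT box CCAAT and the TATA box TATAAA on either strand. The Lamb1 window (a gene that fell) and the Col3a1 window (a gene that rose) follow for comparison.
Col4a1 (chr8:11312777-11313076, minus strand): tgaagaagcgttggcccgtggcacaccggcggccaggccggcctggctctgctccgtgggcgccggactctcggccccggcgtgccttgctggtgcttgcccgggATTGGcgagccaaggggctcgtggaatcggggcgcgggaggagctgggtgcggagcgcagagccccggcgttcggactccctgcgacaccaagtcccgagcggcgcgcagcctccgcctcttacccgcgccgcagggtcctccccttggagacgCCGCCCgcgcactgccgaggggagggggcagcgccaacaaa
Col4a2 (chr8:11312555-11312854, plus strand): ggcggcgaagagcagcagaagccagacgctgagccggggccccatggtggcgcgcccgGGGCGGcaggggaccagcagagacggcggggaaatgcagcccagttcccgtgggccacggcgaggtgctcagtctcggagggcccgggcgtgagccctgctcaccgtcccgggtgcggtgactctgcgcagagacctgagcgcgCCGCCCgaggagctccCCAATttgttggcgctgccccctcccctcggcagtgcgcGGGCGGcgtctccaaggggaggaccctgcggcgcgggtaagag
Lamb1 (chr12:31265043-31265342, plus strand): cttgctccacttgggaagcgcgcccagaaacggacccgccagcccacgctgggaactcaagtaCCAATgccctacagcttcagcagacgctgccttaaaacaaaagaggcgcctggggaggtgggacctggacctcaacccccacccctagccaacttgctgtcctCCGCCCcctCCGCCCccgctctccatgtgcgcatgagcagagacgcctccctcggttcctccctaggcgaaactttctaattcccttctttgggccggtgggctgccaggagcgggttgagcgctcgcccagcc
Col3a1 (chr1:45311288-45311587, plus strand): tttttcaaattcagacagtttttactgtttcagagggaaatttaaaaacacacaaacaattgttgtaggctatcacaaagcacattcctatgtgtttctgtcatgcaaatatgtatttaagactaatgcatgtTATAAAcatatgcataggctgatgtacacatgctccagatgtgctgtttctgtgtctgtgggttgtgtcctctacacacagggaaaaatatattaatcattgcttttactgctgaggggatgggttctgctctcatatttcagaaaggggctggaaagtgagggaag

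The windows of Col4a1 and Col4a2 overlap by 78 bases (chr8:11312777-11312854), and their annotated starts lie 21 bases apart on opposite strands. A GC box lies in the shared stretch. The Col4a1 window held 1 GC box and 1 CCAAT box, the Col4a2 window 3 GC boxes and 1 CCAAT box, and neither a TATA box. The Lamb1 window held 2 GC boxes and 1 CCAAT box. The Col3a1 window held 1 TATA box and neither of the other motifs, and 37.7% of its bases were G or C, against 74.0% for Col4a1, 73.7% for Col4a2 and 63.7% for Lamb1. Among 32817 promoter windows of this length, 35.6% held a GC box, 37.4% a CCAAT box and 13.6% a TATA box. Of the 44 windows of matrix genes among them, 23 held a GC box, 14 a CCAAT box and 8 a TATA box. Windows were found for 38 of the 57 matrix genes, and these matches describe letters only.

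Among the laminins, 2 of 9 measured genes fell (1.96% of all genes did) and none rose (3.39% of all genes did). Lamb1 encodes the beta chain of laminins of the early embryo. It had 255 and 178 on the Hemangioblast arrays, against 612 and 549.6 on the hCD4 arrays. All Hemangioblast values were under all hCD4 values (means 217 ± 54.5 for Hemangioblast and 581 ± 43.9 for hCD4, log2 change -1.38, SE 0.224, adjusted p = 0.0130). Lama5, the alpha chain of the laminin that later becomes widespread in epithelia and vessels, had 106 and 105 on the Hemangioblast arrays, against 356 and 294 on the hCD4 arrays. The Hemangioblast arrays were nearly equal and both far below the hCD4 arrays (means 105 ± 0.541 for Hemangioblast and 325 ± 43.5 for hCD4, log2 change -1.49, SE 0.244, adjusted p = 0.0134). Lama1, the alpha chain found in laminins of the early embryo, had 464 and 460.01 on the Hemangioblast arrays, against 502 and 478 on the hCD4 arrays. Its change was near 0 and its 95% interval ran from -0.47 to 0.31 (log2 change -0.08, adjusted p = 0.895). Lamc1, the gamma chain of most laminins, had 533 and 511 for Hemangioblast, against 663 and 695 for hCD4. Its groups did not overlap, yet its change missed the threshold (-0.37, interval -0.74 to 0.00, adjusted p = 0.310).

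The other laminin genes showed no call. Lama4, an alpha chain of endothelial basement membranes, averaged 366 ± 25.5 for Hemangioblast and 393 ± 36.8 for hCD4, with overlapping groups (adjusted p = 0.886). Lama2, an alpha chain of muscle, averaged 105 ± 10.4 for Hemangioblast and 100.05 ± 13.7 for hCD4, while Lama3, of epithelia, averaged 81.4 ± 9.26 for Hemangioblast and 80.3 ± 21.1 for hCD4. Lamb2 and Lamb3 stayed below 100 on all arrays. Within arrays, the log2 difference Lamb1 minus Lama1 was -0.82 and -1.29 on the Hemangioblast arrays, against 0.28 and 0.20 on the hCD4 arrays, and Lamb1 minus Lamc1 was -1.02 and -1.44 for Hemangioblast, against -0.11 and -0.33 for hCD4. On its brightest probe set, Lamb1 was thus lower relative to Lama1 and Lamc1. It was not compared within arrays with Lama5, whose own log2 change was -1.49. The second Lamb1 probe set had a log2 change of -0.50, against -0.37 for Lamc1. The within-array differences were not tested. Lama5 minus Lama1 was -1.98 on both Hemangioblast arrays, against -0.48 and -0.67 on the hCD4 arrays.

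Nidogens bridge laminin and collagen IV. Nid2 had 74.5 and 78.4 on the Hemangioblast arrays, against 252 and 141 on the hCD4 arrays. The groups did not overlap, but the hCD4 arrays lay far apart and the change did not pass (log2 change -1.15, SE 0.334, adjusted p = 0.111). Nid1 had 163 and 124 for Hemangioblast, against 195 and 127 for hCD4, with overlapping groups (-0.13, adjusted p = 0.912). Hspg2, which encodes perlecan, averaged 65.0 ± 5.45 for Hemangioblast and 100.3 ± 19.0 for hCD4 (-0.51, adjusted p = 0.509).

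Of the remaining basement membrane collagens, none passed. Col18a1, the source of the vessel-inhibiting fragment endostatin, had 1162 and 722 on the Hemangioblast arrays, against 1377 and 1463 on the hCD4 arrays. The values did not overlap, but the Hemangioblast arrays differed widely (-0.62, SE 0.220, adjusted p = 0.194), and without Hemangioblast replicate 1 the change was -0.96 with an adjusted p of 0.0160. Its further 4 probe sets had log2 changes from -0.58 to 0.40. Col7a1, the collagen of anchoring fibrils, averaged 704 ± 69.3 for Hemangioblast and 794 ± 97.0 for hCD4 (adjusted p = 0.737). Col15a1 and Col17a1 were dim, with means of 53.6 for Hemangioblast and 53.5 for hCD4 in Col15a1, and of 79.6 for Hemangioblast and 99.0 for hCD4 in Col17a1.

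Over the basement membrane, 3 of 21 genes fell (1.96% of all genes did) and 0 rose (3.39% of all genes did). The median log2 change was -0.21, against 0.02 over all genes. An unadjusted limma p under 0.05 was found for 5 of the 21 genes and for 6 of the 36 interstitial and other genes. It was found for 11 of all 57 matrix genes, beside 1502 of all 8251 genes. Over the interstitial and other matrix, 3 of 36 fell and 2 rose, beside the same 1.96% and 3.39% of all genes, and the median was -0.01. The changes of both classes are set out by role in the plot of log2 changes with their intervals. Markers of endoderm, a tissue that secretes basement membrane in the embryo, showed 1 of 17 lower (Gata6) and 0 higher. Over all genes, 1.96% were lower and 3.39% higher. Sums of these markers were 4479 and 3809 on the Hemangioblast arrays, against 5189 and 4961 on the hCD4 arrays. The list spans a wide range of signal: Apoa1 (at most 2.72), Hnf4a (at most 15.1) and Rbp4 (at most 29.6) were near the lowest values, while Krt8 (600.7 to 1473), Sox7 (744 to 1364), Gata4 (310.4 to 457) and Sox17 (169.7 to 233) gave clear signal on all arrays. Dab2, in the same list, had a log2 change of 0.99 (adjusted p = 0.0505), opposite in sign to Gata6 at -0.89 (adjusted p = 0.0398). The part of endoderm in the falls was not tested. The Gapdh ratio was highest on Hemangioblast replicate 1, and its part in the falls was not tested. Without that array Col4a1 (-2.11), Lamb1 (-1.62), Lama5 (-1.49) and Fn1 (-1.41) still passed, while Fbln2 (adjusted p = 0.0717) and Col13a1 (0.126) did not. With either hCD4 array left out, Col4a1 still passed, while Lamb1 and Lama5 did not. Such fits leave 1 hCD4 array, and fewer probe sets passed as lower over the whole array too. Over all alternatives that test single probe sets, the log2 change ran from -1.62 to -1.14 for Lamb1 and from -1.62 to -1.20 for Lama5.

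**Figure D2:**
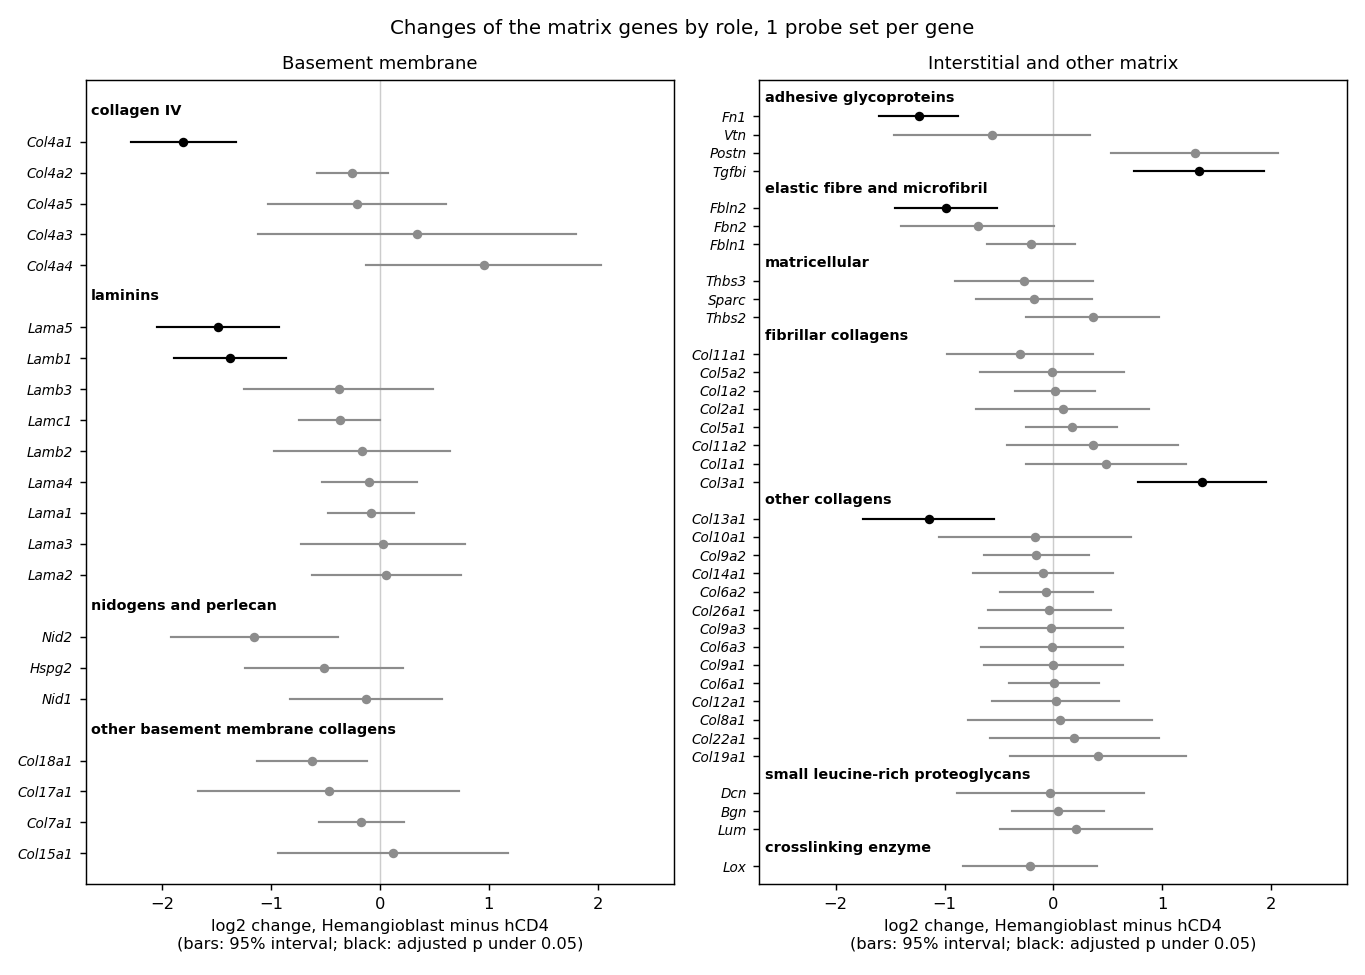
Log2 change, Hemangioblast minus hCD4, of the 57 matrix genes grouped by role, with 95% intervals as bars and genes at an adjusted p under 0.05 in black. In the basement membrane panel the 3 black genes lie left of 0; in the other panel 3 lie left (Fn1, Fbln2 and Col13a1) and 2 right (Col3a1 and Tgfbi).

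Among the adhesive glycoproteins of the interstitial matrix, Fn1 fell and Tgfbi rose. Fn1 encodes fibronectin, which is needed for mesoderm and vessel formation in the mouse embryo. It had 2538 and 2002 on the Hemangioblast arrays, against 5265 and 5411 on the hCD4 arrays. Both Hemangioblast values were far below either hCD4 value, and the hCD4 arrays lay close together (means 2270.02 ± 380 for Hemangioblast and 5338 ± 103 for hCD4, log2 change -1.24, SE 0.157, adjusted p = 0.00354). Without hCD4 replicate 2 its adjusted p was 0.0623. Tgfbi, a TGF-beta-induced adhesion protein that macrophages also make, had 361 and 389.9 on the Hemangioblast arrays, against 111 and 172 on the hCD4 arrays. The groups were well apart (means 376 ± 20.3 for Hemangioblast and 142 ± 42.9 for hCD4, log2 change 1.34, SE 0.260, adjusted p = 0.0263).

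Postn and Vtn, the other members of that role, did not pass. Postn, which encodes periostin, a protein of mesenchyme and valves, had 143 and 217 on the Hemangioblast arrays, against 51.1 and 75.5 on the hCD4 arrays. Both Hemangioblast values were above both hCD4 values, but the arrays of each group were spread (log2 change 1.30, SE 0.333, adjusted p = 0.0751). Vtn, the plasma protein vitronectin made in liver, was at the lowest value of the array on both Hemangioblast arrays and at 17.6 and 2.83 on the hCD4 arrays, so no fold is given.

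Fibulins and fibrillins shape elastic fibres and microfibrils. Fbln2, which binds fibronectin and nidogen, had 253 and 261 on the Hemangioblast arrays, against 464 and 598 on the hCD4 arrays. It fell (means 257 ± 4.99 for Hemangioblast and 531 ± 95.1 for hCD4, log2 change -0.99, SE 0.204, adjusted p = 0.0337), and the groups did not overlap. Fbln1 averaged 1166 ± 99.6 for Hemangioblast and 1357 ± 262 for hCD4, with overlapping groups (-0.21, adjusted p = 0.674). Fbn2, the fibrillin of developing tissues, had 81.7 and 123 for Hemangioblast, against 152 and 196 for hCD4 and did not pass (-0.69, adjusted p = 0.314). With 1 array left out, Fbln2 had an adjusted p of 0.0717 to 0.263 whichever array was missing.

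Of 8 fibrillar collagen genes, Col3a1 rose (3.39% of all genes did) and none fell (1.96% of all genes did). Type III collagen accompanies type I in vessel walls, skin and other elastic tissues. Col3a1 had 268 and 349 on the Hemangioblast arrays, against 103 and 115 on the hCD4 arrays. The lowest Hemangioblast value was well above the highest hCD4 value (means 308 ± 57.6 for Hemangioblast and 109 ± 8.91 for hCD4, log2 change 1.37, SE 0.256, adjusted p = 0.0226). Col1a2, a chain of type I collagen, had 617 and 668 for Hemangioblast, against 619 and 651 for hCD4, and its change was near 0 (0.02, interval -0.35 to 0.39, adjusted p = 0.986). Col1a1, its partner chain, had 615 and 774 for Hemangioblast, against 714 and 334 for hCD4. The hCD4 arrays differed from each other by more than the groups did (0.48, adjusted p = 0.546). A second Col1a1 probe set had 419 and 475 for Hemangioblast, against 323 and 347 for hCD4. Its groups did not overlap, and it did not pass (0.40, adjusted p = 0.360). Col5a1, which sets the width of type I fibrils, averaged 568 ± 73.0 for Hemangioblast and 502 ± 43.5 for hCD4 (0.17, adjusted p = 0.755). The remaining 4, Col2a1, Col5a2, Col11a1 and Col11a2, had log2 changes of -0.31 to 0.36.

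Mesenchyme and fibroblasts make most fibrillar collagen and include the STO feeder layer. Their markers were higher in 1 of 13 cases (3.39% of all genes) and lower in 0 (1.96% of all genes). Their sums were 2830 and 3173 on the Hemangioblast arrays, against 3112 and 2670 on the hCD4 arrays. The marker that rose was Acta2, the smooth muscle actin, at 177 and 134 for Hemangioblast, against 28.8 and 14.9 for hCD4. Its smooth muscle companions lay the other way without passing: Tagln had 314 and 258 for Hemangioblast, against 663 and 462 for hCD4 (-0.92, adjusted p = 0.0656), and Cnn1 had a log2 change of -0.80 (adjusted p = 0.309). Thy1 (at most 111) and Pdgfrb (at most 109.7) were dim, while Snai2 (452 to 606), S100a4 (350.1 to 648), Vim (225.5 to 443) and Twist1 (244 to 286) gave clear signal on all arrays. The macrophage sums given above were higher on the same arrays as Col3a1 and Tgfbi, and the part of either cell type in these changes was not tested. Without Hemangioblast replicate 2 or hCD4 replicate 1, neither Col3a1 (adjusted p = 0.156 and 0.112) nor Tgfbi (0.122 and 0.128) passed, without hCD4 replicate 2 Col3a1 did not (0.0937), and without Hemangioblast replicate 1 Tgfbi did not (0.0754).

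Of 14 other collagen genes, Col13a1 fell (1.96% of all genes did). It encodes a membrane-anchored collagen of cell contacts, and had 99.1 and 101.4 on the Hemangioblast arrays, against 268 and 217 on the hCD4 arrays. The groups did not overlap, and its adjusted p lay just under the threshold (log2 change -1.15, SE 0.261, adjusted p = 0.0493). This probe set is of the type whose probes may match a family of related sequences, and with 1 array left out its adjusted p was 0.126 to 0.241. Of the beaded-filament collagen genes, Col6a1 averaged 409.3 ± 10.8 for Hemangioblast and 408.5 ± 20.5 for hCD4 (log2 change 0.00, interval -0.41 to 0.42), and Col6a2 377 ± 10.4 for Hemangioblast and 397 ± 32.5 for hCD4. Col9a2, a collagen of cartilage, averaged 381 ± 84.1 for Hemangioblast and 423 ± 16.3 for hCD4 (adjusted p = 0.814). The remaining log2 changes of this role lay between -0.17 and 0.41.

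Matricellular proteins, proteoglycans and the crosslinking enzyme showed no call. Sparc, a collagen-binding protein abundant in embryonic endoderm and bone, had 552 and 356 on the Hemangioblast arrays, against 538 and 472 on the hCD4 arrays, with overlapping groups (-0.18, interval -0.71 to 0.35, adjusted p = 0.809). Thbs2, an inhibitor of vessel growth, averaged 178 ± 20.2 for Hemangioblast and 136 ± 19.6 for hCD4, and Thbs3 113 ± 6.99 for Hemangioblast and 140.3 ± 16.05 for hCD4. The small proteoglycan genes Bgn (610 ± 103 for Hemangioblast and 589 ± 44.0 for hCD4), Dcn (112 ± 58.6 for Hemangioblast and 108 ± 12.2 for hCD4) and Lum (104 ± 19.3 for Hemangioblast and 87.5 ± 0.449 for hCD4) had log2 changes of -0.03 to 0.21. Lox, which crosslinks collagen and elastin, averaged 142 ± 17.9 for Hemangioblast and 167 ± 24.9 for hCD4 (-0.21, adjusted p = 0.798).

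More than 1 probe set was present for 18 matrix genes, 42 in all. The signs agreed for all probe sets of 10 genes and differed for 8. In these 8, log2 changes ran from -0.62 to 0.40 for Col18a1, -0.45 to 0.08 for Fbln1 and -0.10 to 0.35 for Lama4. Lox ran from -0.21 to 0.31, Col5a1 from -0.27 to 0.17 and Col12a1 from -0.29 to 0.02. Bgn ran from -0.16 to 0.04 and Col9a3 from -0.02 to 0.29. No probe set of these 8 genes passed. In 5 genes 1 probe set passed while the remaining ones did not, and no gene passed by all of its probe sets. The second probe sets of Lama5 (log2 change -0.46, adjusted p = 0.605), Lamb1 (-0.50, adjusted p = 0.427) and Col13a1 (-0.49, adjusted p = 0.474) were lower in the same direction without passing. Those of Col3a1 (0.43 and 0.66) and Tgfbi (0.14) were higher without passing, and were dim, at no more than 79.9 on any array. When the log2 values of all probe sets of a gene were averaged, Col4a1, Fn1 and Fbln2 passed, each with 1 probe set, while all 5 called genes with further probe sets did not. These were Lamb1 (-0.94, adjusted p = 0.0662), Lama5 (-0.97, adjusted p = 0.0981), Col13a1 (-0.82, adjusted p = 0.118), Col3a1 (0.82, adjusted p = 0.180) and Tgfbi (0.74, adjusted p = 0.241). The probe sets used for Lamc1, Nid2, Col1a2, Bgn and Col13a1 are of types that may bind related sequences or were chosen under looser rules, so their values are less certain.

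**Figure D3:**
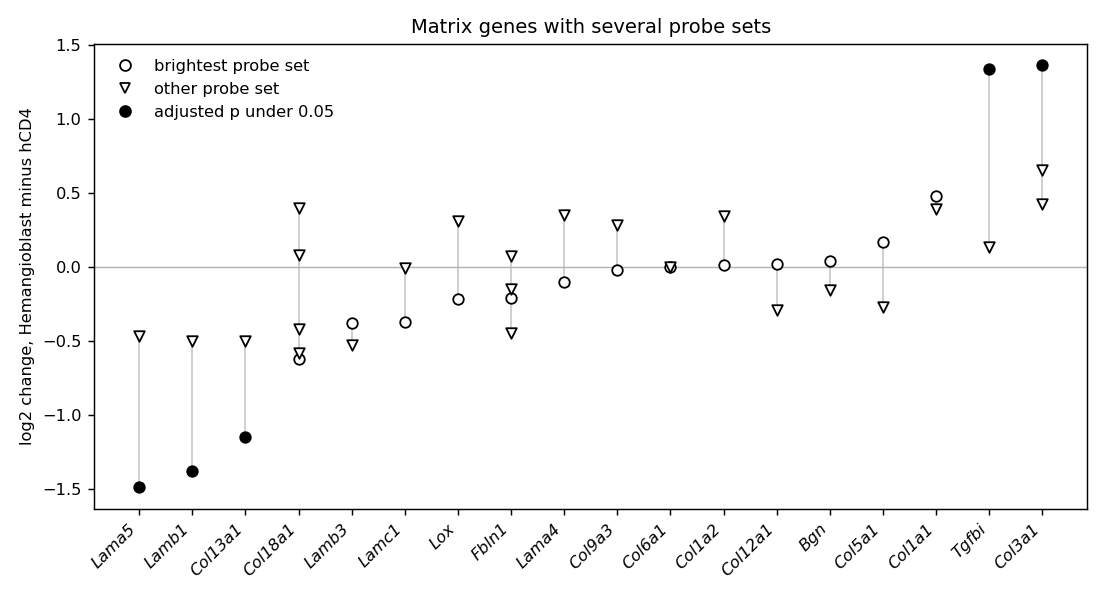
Log2 change, Hemangioblast minus hCD4, of every probe set of the 18 matrix genes with more than 1, with circles for the brightest probe set, triangles for the others and filled symbols for an adjusted p under 0.05. The 5 filled symbols are all brightest probe sets, and their partners lie on the same side of 0 with smaller changes.

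Genes whose products make, cut or bind matrix were read from lists written from general knowledge. In the collagen-processing list, 2 of 16 measured genes fell and 0 rose, against 1.96% lower and 3.39% higher of all genes (median log2 change -0.19). Serpinh1, which encodes the collagen chaperone HSP47, had 576 and 736 on the Hemangioblast arrays, against 1417 and 1422 on the hCD4 arrays. The hCD4 arrays were nearly equal and far above both Hemangioblast arrays (log2 change -1.11, SE 0.169, adjusted p = 0.00945). Ppib, the prolyl isomerase cyclophilin B that helps fold collagen, had 760 and 816 on the Hemangioblast arrays against 1232 and 1287 on the hCD4 arrays (-0.67, SE 0.148, adjusted p = 0.0447). Of the hydroxylation genes, P4hb, a subunit of prolyl 4-hydroxylase, averaged 1865 ± 41.5 for Hemangioblast and 1838 ± 150 for hCD4 (0.02, adjusted p = 0.976) and did not pass. The prolyl 3-hydroxylase relatives P3h4 (-0.87, adjusted p = 0.225) and P3h3 (-1.07, adjusted p = 0.373) did not pass. Without either hCD4 array neither Serpinh1 (0.0830 and 0.0909) nor Ppib (0.195 and 0.291) passed, and Ppib did not pass without either Hemangioblast array.

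Among 30 matrix protease and inhibitor genes, 2 rose and 1 fell, against 3.39% higher and 1.96% lower of all genes (median 0.03). Mmp12, the macrophage metalloelastase, had 304 and 355 on the Hemangioblast arrays, against 108 and 167 on the hCD4 arrays (1.196, SE 0.269, adjusted p = 0.0471), and a second probe set rose too (1.68, adjusted p = 0.0300). Adam10, a sheddase of membrane proteins, had 622 and 722 for Hemangioblast, against 389.0 and 332 for hCD4 (0.87, SE 0.184, adjusted p = 0.0373), and its second probe set did not pass (0.31, adjusted p = 0.718). Adam19, a relative active in the developing heart, fell, with 157 and 173 on the Hemangioblast arrays, against 517 and 360.5 on the hCD4 arrays (-1.31, SE 0.242, adjusted p = 0.0213). Timp3, a matrix-bound inhibitor of metalloproteases, had 368 and 375 for Hemangioblast, against 178 and 52.2 for hCD4; the hCD4 arrays differed widely and it did not pass (1.75, SE 0.439, adjusted p = 0.0679). Mmp14, the membrane metalloprotease with the highest mean of the list, averaged 571 ± 81.2 for Hemangioblast and 761 ± 16.5 for hCD4 (adjusted p = 0.285). With 1 array left out, neither Mmp12 (adjusted p up to 0.202) nor Adam10 (up to 0.245) passed, Adam19 passed in 2 of 4 such fits, and Timp3 passed without hCD4 replicate 1 (0.00819).

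Of 23 matrix receptor genes, 1 rose and 0 fell (median 0.06). That share is close to the 3.39% higher and 1.96% lower of all genes, so the count says nothing of the list. Cd47, a receptor for thrombospondins and a signal against phagocytosis, had 982 and 1066 on the Hemangioblast arrays, against 171 and 53.4 on the hCD4 arrays. Both Hemangioblast arrays were several times above either hCD4 array (log2 change 3.19, SE 0.402, adjusted p = 0.00340), and a second probe set rose by 3.79 (adjusted p = 0.000135). Itga6, the alpha chain of laminin-binding integrins, had 219 and 268 on the Hemangioblast arrays, against 126 and 71.6 on the hCD4 arrays and did not pass (1.21, adjusted p = 0.0755). Dag1, which encodes the laminin receptor dystroglycan, had 991 and 785 for Hemangioblast, against 1316 and 1198 for hCD4 (-0.50, adjusted p = 0.169). Lgals3bp, a secreted ligand of integrins and galectins, had 229.5 and 309 for Hemangioblast, against 126 and 155 for hCD4 (0.86, adjusted p = 0.129). Rpsa, the ribosomal protein also described as a laminin receptor and the brightest of the list, averaged 4965 ± 98.4 for Hemangioblast and 5421 ± 30.7 for hCD4 (-0.13, adjusted p = 0.748).

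**Figure D4:**
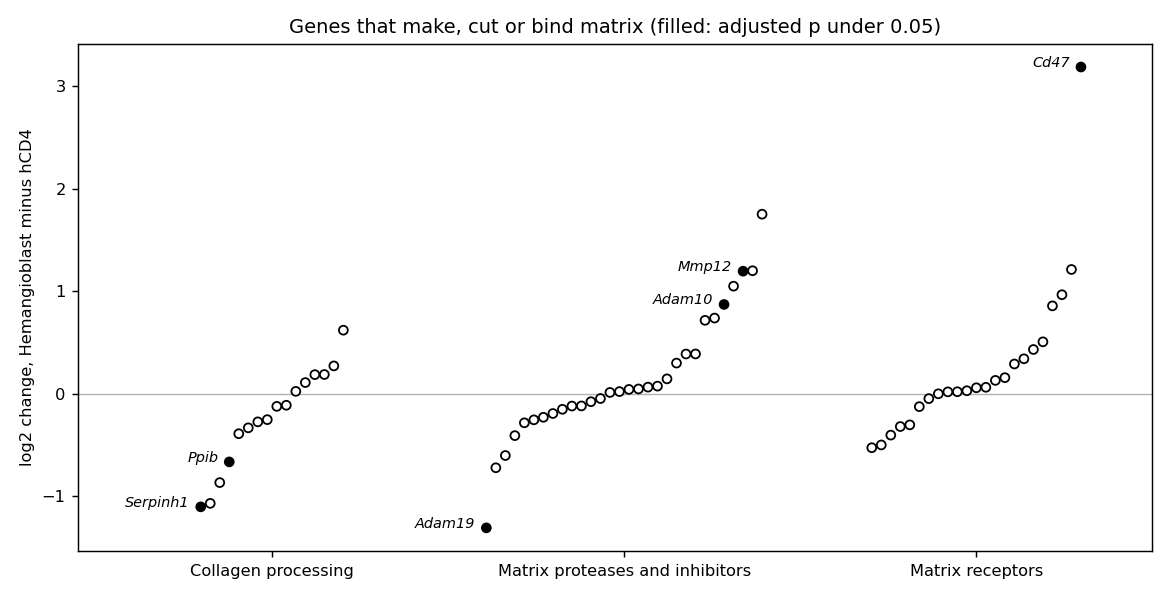
Log2 change, Hemangioblast minus hCD4, of 16 collagen-processing, 30 protease and inhibitor and 23 receptor genes, ordered by change within each list, with filled symbols for an adjusted p under 0.05. Serpinh1, Ppib and Adam19 are the filled symbols below 0, and Mmp12, Adam10 and Cd47 those above it.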

How the data were processed

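Per the labels' protocols, TRIzol RNA (20 ug) was labelled unamplified. The deposited values are a linear intensity for each probe set; how they were computed from the scans is not stated in the labels. Intensities exactly 1 made up 1.16 to 1.28% of each array. All 4 columns were used.

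Of 12488 probe sets, 66 controls were left out. Arrays were scaled to the average trimmed mean (2% trimmed at each end, factors 0.939 and 1.05 for Hemangioblast, 0.936 and 1.09 for hCD4), and log2 was taken after adding 16. Genes were named from the platform annotation, and 10833 probe sets had 1 symbol. Testing used limma 3.58.1 under R 4.3.3 (lmFit, eBayes with an intensity trend, no block; 2 residual and 6.18 prior degrees of freedom), two-sided, with Benjamini-Hochberg adjustment over 12422 probe sets and a threshold of 0.05. The code was tested on simulated data. The number of arrays limits precision, with a median standard error of 0.27. The matrix genes and lists were chosen with earlier results of these data known. Named are all matrix genes past the threshold, the 3 brightest of each role, a set chosen by name (Col4a1, Col4a2, Lama1, Lamb1, Lamc1, Nid1, Nid2, Hspg2, Sparc, Fn1, Col1a1, Col1a2, Col3a1), and in each further list those past the threshold, the 4 smallest adjusted p-values and the brightest. Alternatives were added constants of 1 and 64, other scalings, no trend, a minimum mean intensity of 64, a replicate block, averaged probe sets and leaving out each array. No label says that equal replicate numbers share a culture, so the numbers were not taken as pairs. Over all probe sets, same-numbered arrays did not deviate together (r = -0.0078). The Gapdh and actin 3' to 5' ratios were nevertheless higher on both replicate 1 arrays. Promoter windows are from RefSeq. Plots used matplotlib 3.10.9 (Python 3.11.15).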

Additional observations from a re-analysis of the deposited data

How the results depend on the processing

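Of the 8 matrix probe sets past the threshold, 2 (Col4a1 and Lama5) passed under all 8 alternatives that keep every array and test single probe sets. With the probe sets of a gene averaged, Col4a1 passed and Lama5 did not (limma adjusted p = 0.0981). Over these 8 alternatives and the fits with 1 array left out, the log2 change of Col4a1 ran from -2.11 to -1.49. No called change reversed under any alternative tried. Without an intensity trend, 2 matrix probe sets were lower and 0 higher (0 and 0 in the interstitial class), and 0 collagen-processing genes, 0 rising and 0 falling protease genes passed. Without scaling, 2 matrix probe sets were lower, 0 interstitial genes lower, 1 processing gene lower and 0 protease genes either way, and 2 probe sets met the 2-fold rule lower. An added constant of 64 left 1 lower processing gene, 1 higher protease gene and 0 probe sets meeting the 2-fold rule higher. With median scaling and with quantile normalization these 3 counts were 1, 0 and 1, and 1, 1 and 1. Leaving out dim probe sets gave 4 higher protease and 3 higher receptor genes. Averaging the probe sets of a gene left 1 lower basement membrane gene and 0 higher interstitial genes. Counting Sparc with the basement membrane left 3 lower. The replicate block gave 6 lower and 3 higher matrix probe sets, adding Postn (limma adjusted p = 0.0487), and took no matrix call away. It also gave 3 higher protease genes. Over all probe sets, 710 passed with the block (432 higher, 278 lower), against 556 without it (362 higher, 194 lower).

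With 1 array left out, matrix probe sets numbered 1 to 5 lower and 0 to 1 higher, basement membrane genes 1 to 4 lower, interstitial genes 0 to 1 lower and 0 to 1 higher, processing genes 0 to 1 lower, protease genes 0 to 1 higher and 0 to 1 lower, receptor genes 1 to 2 higher, and probe sets meeting the 2-fold rule 4 to 6 lower and 2 to 4 higher. These fits have fewer arrays, and the lone array is assumed to vary like the other group. Otherwise the cause was not tested. Over all probe sets, 556 passed (362 higher and 194 lower), against 220 without a trend (188 higher, 32 lower), 272 without scaling (222 higher, 50 lower), 893 of 9716 with dim probe sets left out, and 219 to 517 with 1 array left out. In all, 11 matrix genes were under 100 on all arrays, where changes are poorly measured.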
